A study of Mus musculus with 22 samples.

Results

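The genes described here are 9 regulators of the step from dividing neural progenitor to neuron: Neurog1, Neurog2, Neurod1, Insm1, Eomes, Hes6, Btg2, Dll1 and Lfng. They were chosen by name among the 21107 gene symbols of the array, and 13 probes carry them, with 3 probes for Btg2, 2 each for Hes6 and Lfng and 1 for every other gene. Whole mouse brain RNA was hybridised to 22 dual-colour arrays, each with the RNA of 1 animal labelled Agtr2 knockout and of 1 control animal. Agtr2, on the X chromosome, encodes the angiotensin II type 2 receptor. The groups were 4 Agtr2 knockout animals and 4 controls at postnatal day 1 (P1), on 8 arrays, and 8 Agtr2 knockout animals and 6 controls at embryonic day 15 (E15), on 14 arrays. The allele, the strain and the sex of the animals were not given in the sources used here. The animals of a group are described as biological replicates.

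In the embryonic brain, radial glia divide next to the ventricle and give rise to neurons either directly or through intermediate progenitors, which divide away from the ventricle. Proneural factors of the basic helix-loop-helix family start this step: Neurog1 and Neurog2 bind E-boxes in DNA, switch on later factors such as Neurod1, and raise the Notch ligand Dll1, which keeps neighbouring cells in the progenitor state. Insm1 and Eomes act in intermediate progenitors, Hes6 opposes the Notch effector Hes1, Btg2 restrains the cell cycle in progenitors that are about to make neurons, and Lfng adds sugars to Notch receptors and so changes how they respond to their ligands.

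Promoter sequences are shown for 4 of the genes because the factors named above act through E-boxes (CANNTG), and because Dll1 and Neurog2 had the most similar levels over the animals. The sequences are RefSeq windows of 300 bases on GRCm38.p6, from 250 bases before the gene's start to 50 after it, written in the direction of transcription with each E-box in capitals.
Neurog2, chr3:127632886-127633185, plus strand: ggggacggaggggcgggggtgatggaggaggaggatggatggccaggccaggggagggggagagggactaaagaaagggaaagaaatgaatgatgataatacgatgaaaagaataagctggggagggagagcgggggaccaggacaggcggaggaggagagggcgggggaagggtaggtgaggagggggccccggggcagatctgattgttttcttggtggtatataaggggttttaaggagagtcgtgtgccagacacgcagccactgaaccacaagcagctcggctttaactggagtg
Dll1, chr17:15376883-15377182, minus strand: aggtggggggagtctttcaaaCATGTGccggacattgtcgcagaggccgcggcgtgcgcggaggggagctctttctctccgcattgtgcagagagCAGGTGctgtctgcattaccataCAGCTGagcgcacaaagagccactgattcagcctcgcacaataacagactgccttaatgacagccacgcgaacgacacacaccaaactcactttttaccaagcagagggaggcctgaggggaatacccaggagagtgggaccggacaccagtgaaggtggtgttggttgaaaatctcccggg
Hes6, chr1:91413989-91414288, minus strand: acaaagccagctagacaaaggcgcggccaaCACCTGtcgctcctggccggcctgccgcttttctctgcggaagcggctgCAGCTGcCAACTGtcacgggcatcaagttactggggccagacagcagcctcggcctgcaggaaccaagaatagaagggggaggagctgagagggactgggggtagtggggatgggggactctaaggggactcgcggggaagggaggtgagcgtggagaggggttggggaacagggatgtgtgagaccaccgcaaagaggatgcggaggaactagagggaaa
Lfng, chr5:140607091-140607390, plus strand: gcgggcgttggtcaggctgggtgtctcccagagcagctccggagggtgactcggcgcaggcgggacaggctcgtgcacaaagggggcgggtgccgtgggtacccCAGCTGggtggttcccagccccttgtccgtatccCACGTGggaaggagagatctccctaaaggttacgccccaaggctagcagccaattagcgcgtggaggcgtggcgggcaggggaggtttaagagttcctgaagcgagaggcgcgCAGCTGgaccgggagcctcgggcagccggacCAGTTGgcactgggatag
The Neurog2 window holds no CANNTG. The Dll1 window holds 3, which begin 229, 155 and 132 bases before the gene's start, and the last of them is also a CAGCTG. The Hes6 window also holds 3, and the Lfng window holds 4, of which 1 is the CACGTG sequence. Dll1 and Hes6 each have another start in the table, and both of those windows hold 1 CANNTG. Neurog1 and Neurod1 have 1 each, and Btg2 and Eomes none. Among all 32851 promoter windows of this length, 72.3% hold at least 1 CANNTG on either strand, since the motif reads the same on both, so its presence in 5 of the 8 genes with a window is a description and marks no bound site. The core of the Notch effector Rbpj, TGGGAA, read on both strands, was in the windows of Btg2 (1 match) and Lfng (2 matches) and in 25.6% of all windows. Insm1 had no window.

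All 9 genes were measured at both ages, and the brightest probe of each carried the scanner's flag for a signal well above background in at least 7 of 8 P1 channels and 14 of 14 E15 channels of each group. Levels are given in array units after background correction, to which a constant of 50 was added, so that changes of dim genes are understated. Levels of different probes are not comparable. A fall here may mean fewer cells of a type or less RNA per cell, which cannot be told apart in whole brain. All P1 arrays were scanned on 1 day and with 1 software version (8.5.1.1), and all E15 arrays on other days with another (8.1.1.1), so that age and scan day cannot be told apart either. The Agtr2 probe was well above background in 6 of 8 P1 and 13 of 14 E15 knockout channels, against 7 of 8 and 13 of 14 control channels, and its place relative to the deletion was not given, so it does not check the labels. Among E15 brains, knockout animal 8 and control animal 1 stood apart: their summed level of 16 meninges and fibroblast genes was 64280 and 62670 units, against 5915 to 25120 in the other 12, and their skeletal muscle sum was 18650 and 40690 units, against 1623 to 6749. Both also had low sums of 17 forebrain genes (3403 and 3408 units, against 3992 to 14460 in the others).

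In control brains, 6 of the 9 genes fell at P1 relative to E15 and none rose: Btg2, Neurog2, Hes6, Dll1, Insm1 and Neurog1, by 0.52 to 0.88 on the log2 scale. Eomes had a change of -0.60 that did not pass the test, and Lfng and Neurod1 had changes of -0.07 and 0.11. The background is a broad one: 22.6% of the 24702 features tested fell and 12.1% rose (limma, Benjamini-Hochberg adjusted p under 0.05), and the median change was -0.09 over all features, against -0.67 over the 9 genes. In 4 of the 9 genes every P1 control lay below every E15 control, as did 17.3% of all features, and in none did every P1 control lie above every E15 control, as 9.35% of features did.

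Among the proneural factors, Neurog2 had 159, 135, 133 and 194 units in the 4 P1 controls, against a range of 206 to 437 and a median of 254 in the 6 E15 controls. The groups did not overlap, although P1 control 4 came near the lowest embryo. The change was -0.88 (SE 0.22, 95% confidence interval -1.37 to -0.39, limma adjusted p = 0.0121), 1.84-fold lower at P1. Neurog1, its close relative, had 144, 127, 152 and 154 units in P1 controls, against 153 to 258 with a median of 209 in E15 controls. The lowest embryo touched the P1 range and the other 5 lay above it, with a change of -0.52 (SE 0.13, adjusted p = 0.0100). Neurod1, which acts later, in young neurons, did not follow them. It had 107, 117, 129 and 145 units in P1 controls, against 93 to 139 with a median of 113 in E15 controls, and the groups overlapped throughout (change 0.11, SE 0.12, interval -0.17 to 0.38, adjusted p = 0.536).

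Of the intermediate progenitor genes, Insm1, a zinc-finger factor that promotes the formation of these progenitors, had 93.7, 98.5, 98.6 and 82.6 units in P1 controls, against 99.5 to 190 with a median of 151 in E15 controls. Its groups were separated by less than 1 unit, because E15 control 1 was low; the change was -0.67 (SE 0.17, adjusted p = 0.0106). Eomes, the T-box factor that marks cortical intermediate progenitors, had 82.2, 78.3, 83.8 and 82.7 units in P1 controls, against 65.2 to 208 with a median of 123 in E15 controls. Of the embryos, 5 lay above all P1 controls, and control animal 1 lay below all of them. The Eomes change of -0.60 (SE 0.25, interval -1.15 to -0.05) had an adjusted p of 0.0844 with all animals and was -0.79 (limma adjusted p = 0.00437) without E15 control 1. With the scanner's own processed signals, to which no constant is added, the changes were -1.29 for Insm1 (adjusted p = 0.00202) and -1.27 for Eomes (adjusted p = 0.0475).

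Hes6 had 488, 581, 376 and 366 units in P1 controls, against 401 to 1136 with a median of 915 in E15 controls. Only control animal 1 among the embryos lay within the P1 range. The change was -0.86 (SE 0.26, adjusted p = 0.0284), and the dimmer Hes6 probe gave -0.56 (limma adjusted p = 0.0322, every probe tested on its own). The Hes6 call was lost in 6 of the 10 fits that left out 1 animal (E15 controls 3, 5 and 6 and P1 controls 1, 3 and 4), with adjusted p from 0.0507 to 0.0866 and changes from -0.76 to -0.90. Btg2, the antiproliferative gene of progenitors that make neurons, had the lowest p-value of the 9, with 185, 159, 155 and 137 units in P1 controls against 247 to 346 with a median of 284 in E15 controls. The groups were far apart at this probe, and the change was -0.88 (SE 0.12, adjusted p = 0.000477). The 3 Btg2 probes disagreed: the second gave -0.40 (limma adjusted p = 0.00108), while the dimmest gave 0.20 (adjusted p = 0.190).

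Of the Notch pair, the ligand Dll1 had 238, 162, 162 and 176 units in P1 controls, against 253 to 406 with a median of 287 in E15 controls. The groups did not overlap, with P1 control 1 well above the other 3, and the change was -0.76 (SE 0.16, adjusted p = 0.00534). Lfng, the glycosyltransferase, had levels on the log2 scale of 6.50, 6.37, 6.42 and 6.41 in P1 controls, against 6.32 to 6.64 with a median of 6.52 in E15 controls. Its P1 values lay inside the E15 range, and its change was -0.07 (SE 0.08, interval -0.24 to 0.11, adjusted p = 0.547). Its second probe, above background in 10 of the 22 control channels, gave 0.00 (adjusted p = 0.983).

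**Figure D1:**
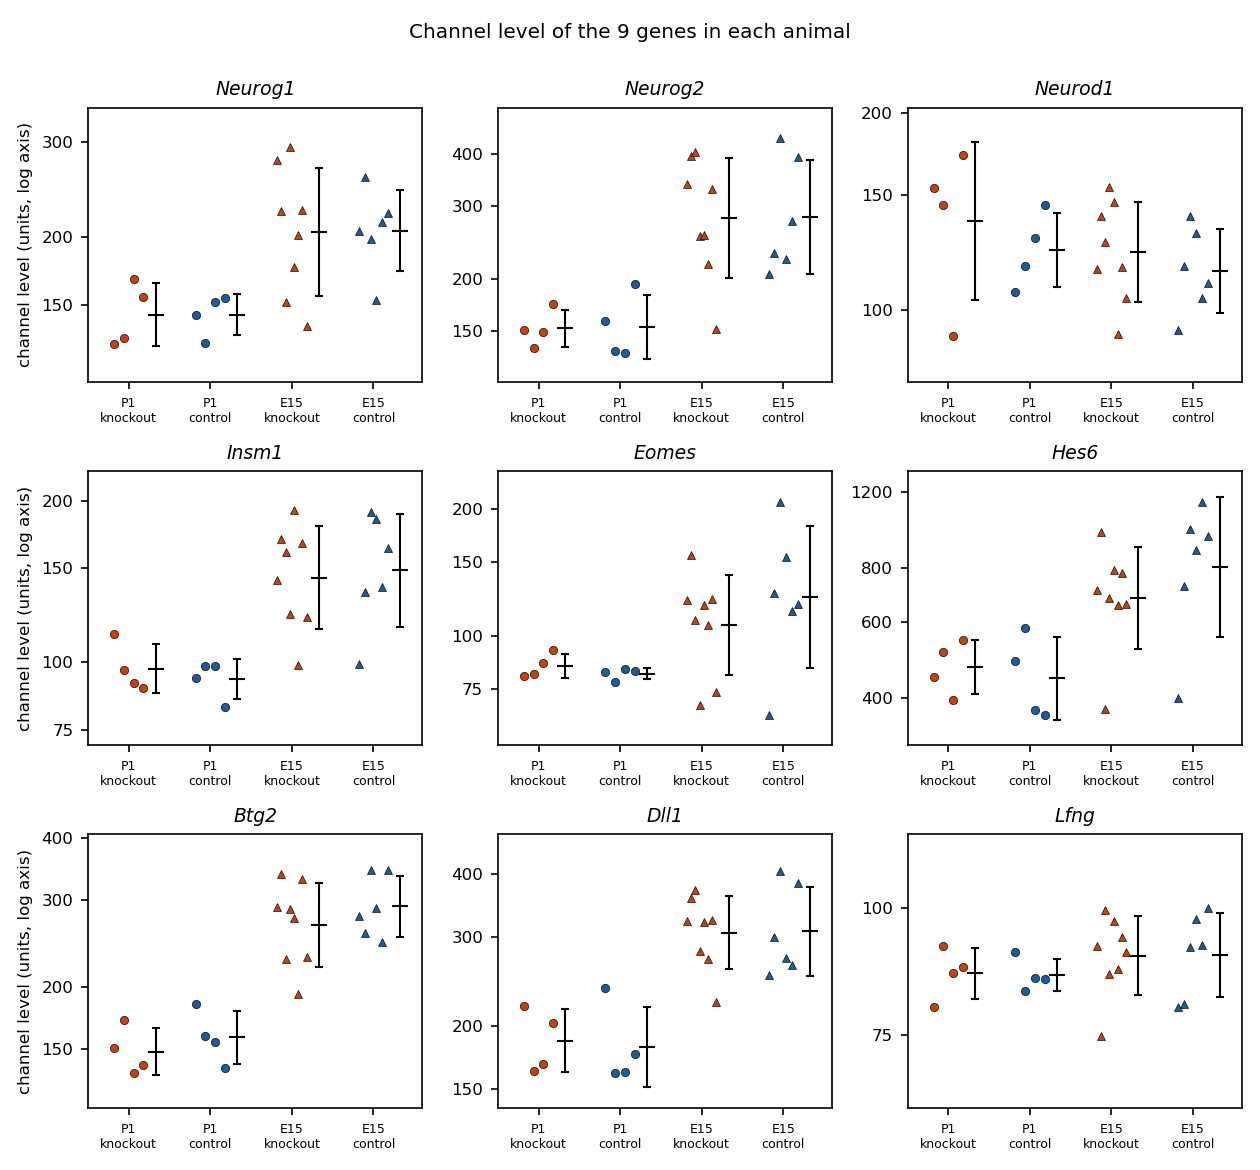
Channel level (array units, log axis) of the brightest probe of each gene in every animal, with P1 knockout, P1 control, E15 knockout and E15 control from left to right, and mean and SD on the log2 scale as black bars. Btg2 and Dll1 separate the ages in both genotypes, while Neurod1 and Lfng overlap throughout.

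The same contrast among the animals labelled knockout, which shared the arrays of the controls but were other animals, gave 4 genes that fell and none that rose, against 14.8% and 9.80% of the 25017 features tested. In 2 of the 9 genes, Btg2 and Dll1, every P1 knockout lay below every E15 knockout, as did 9.05% of features, and none showed the opposite separation, which 6.70% of features did. Btg2 had 150, 171, 134 and 139 units in P1 knockouts, against 193 to 339 with a median of 282 in E15 knockouts, a change of -0.86 (SE 0.15, limma adjusted p = 0.00161). Dll1 had 219, 163, 168 and 203 units in P1 knockouts, against 224 to 373 with a median of 322 in E15 knockouts, and changed by -0.71 (SE 0.13, adjusted p = 0.00293). The ranges of Dll1 were separated by less than those of Btg2.

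Neurog2 had 151, 136, 150 and 174 units in P1 knockouts, against 151 to 404 with a median of 292 in E15 knockouts, and its change of -0.88 (SE 0.23, limma adjusted p = 0.0154) equalled that of the controls. The lowest embryo was knockout animal 8, which lay among the P1 values. Insm1 had 113, 96.8, 91.4 and 89.7 units in P1 knockouts, against 98.8 to 192 with a median of 151 in E15 knockouts (change -0.56, SE 0.16, adjusted p = 0.0227). Hes6 (-0.54, adjusted p = 0.0633), Neurog1 (-0.50, adjusted p = 0.0764) and Eomes (-0.32, adjusted p = 0.237) did not pass the test. In Hes6, knockout animal 3 had 377 units and the other 7 embryos 656 to 967, against 396 to 546 in the 4 P1 knockouts. Neurod1 (0.16, adjusted p = 0.541) and Lfng (-0.06, adjusted p = 0.622) again had changes near 0. Leaving out P1 knockout animal 2 left Btg2 and Dll1 past the test, with Neurog2 at an adjusted p of 0.0510 and Insm1 at 0.0578, and Insm1 also missed it without P1 knockout 3 or 4. Whether the age change itself differed between the genotypes is the contrast of knockout effects given further on, and none of the 9 passed it.

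**Figure D2:**
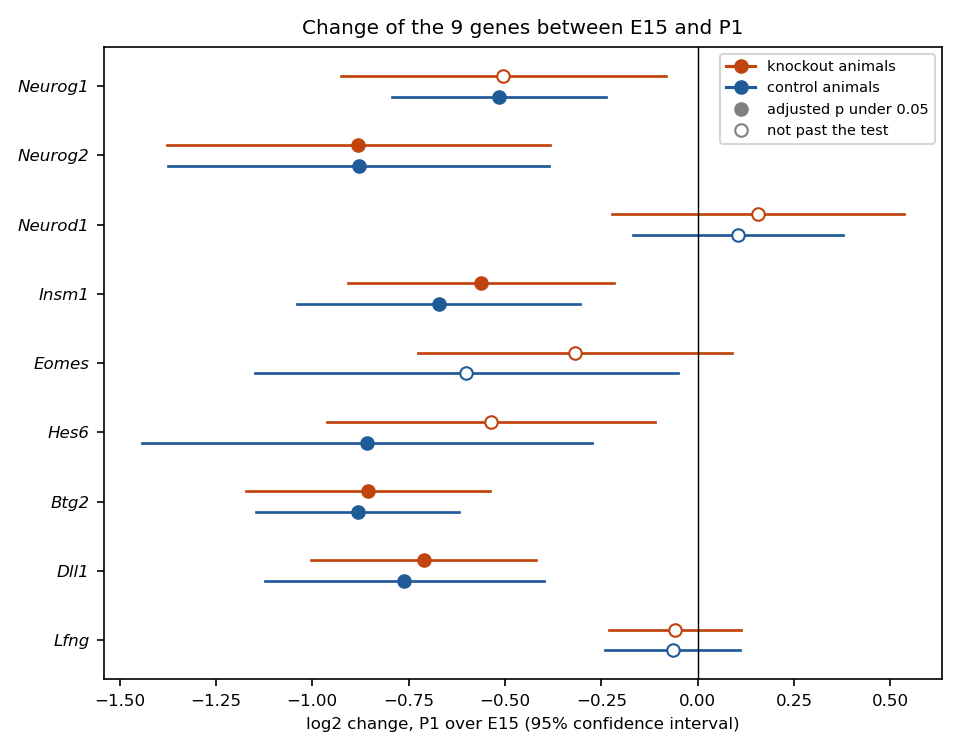
Change from E15 to P1 as log2 of P1 over E15 with its 95% confidence interval, for each gene in knockout animals (upper, orange) and control animals (lower, blue). Filled points passed the test, and the 7 genes apart from Neurod1 and Lfng have estimates from -0.32 to -0.88 in both groups of animals.

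When the 2 E15 animals of each genotype with the highest meninges and fibroblast sums were left out, 7 of 9 genes fell in controls and 5 of 9 in knockouts. This left out knockout animal 7 at 11430 units, although control 5 at 12840 units was kept. In the same fits, 25% of 24701 features fell and 11.7% rose in controls. In knockouts, 14.2% of 25017 features fell and 9.06% rose. The summed level of 16 genes of proliferating cells moved with the 6 genes: it was 3472 to 3880 units in P1 knockouts and 3554 to 4259 in P1 controls, against 5029 to 9795 in E15 knockouts and 7081 to 9911 in E15 controls, with no overlap within either genotype. The forebrain sum was 2176 to 12610 and 2556 to 6200 units at P1 in knockouts and controls, against 3403 to 14460 and 3408 to 12580 units at E15. In controls, 15 of 16 proliferation genes and 6 of 17 forebrain genes fell, while 9 of 13 genes of postmitotic neurons and 7 of 9 astrocyte genes rose. With all animals, 22.6% of all features fell in controls and 12.1% rose. The part of these shifts in the result was not tested.

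In the rest of the Notch pathway, 12 of 26 genes fell and 1 rose in controls, with a median of -0.26. Of all features, 22.6% fell and 12.1% rose, with a median of -0.09. The largest falls were in Mfng (-1.10, SE 0.25, limma adjusted p = 0.00752), a relative of Lfng that acts on the same receptors, and Rbpj (-1.04, SE 0.09, adjusted p = 5.27e-05), the DNA-binding partner of activated Notch. Dll3 (-0.82, adjusted p = 0.00214), a divergent Delta relative, and Jag1 (-0.84, adjusted p = 0.00837), another ligand, also fell. The receptor Notch1 rose by its brightest probe (1.64, adjusted p = 0.0016), whereas its other probe gave -0.14 (adjusted p = 0.492). Among the targets Hes1 fell (-0.26, adjusted p = 0.0266), and Hes5, the main Notch target of neural progenitors, had a change of -0.11 (adjusted p = 0.762). Both calls turned without the 2 connective-rich E15 controls, where Hes1 had -0.22 (adjusted p = 0.0617) and Hes5 -0.43 (adjusted p = 0.0387). Among knockout animals 6 of the 26 fell and 1 rose, against 14.8% and 9.80% of all features.

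Of 27 other neurogenic transcription factors, 12 fell and 2 rose at P1 in controls (median -0.47). The shares over all features were 22.6% and 12.1% (median -0.09). The largest falls were in Sox11 (-1.31, SE 0.37, limma adjusted p = 0.0195), a factor of newborn neurons, and Tcf3 (-1.29, SE 0.13, adjusted p = 8.05e-05), the E-protein that pairs with Neurog and Neurod factors. Another E-protein, Tcf12, fell (-1.11, adjusted p = 0.00218), whereas Tcf4 had a change of 0.40 (adjusted p = 0.253). Atoh1, the proneural factor of cerebellar granule cell precursors, rose (0.53, SE 0.09, adjusted p = 0.00134). The other riser, Scrt1 (0.66 at its brightest probe), had 2 more probes, at -0.34 (adjusted p = 0.0183) and -0.10.

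Of 25 further genes of intermediate progenitors and the transition to neurons, 9 fell and 2 rose in controls (median -0.22). The shares over all features were 22.6% and 12.1% (median -0.09). Cdkn1c, a cell-cycle inhibitor, had the largest fall (-2.07, SE 0.54, limma adjusted p = 0.0135). Its level was 645 to 934 units in P1 controls, against 1507 to 3408 in 5 of the E15 controls and 16380 in E15 control 1. Without E15 controls 1 and 2, the animals with the highest meninges and fibroblast sums, its change was -1.48 (SE 0.20, adjusted p = 0.000633). Next by size was Tead2 (-1.64, SE 0.12, adjusted p = 1.71e-05), a transcription factor of the Hippo pathway. Gadd45g (-1.44, adjusted p = 0.00214) and Rnd3 (-1.35, adjusted p = 2.93e-05), the small GTPase of migrating neurons, fell as well. The risers were Elavl2, at 1 of its 3 probes (0.77), and Neurl1a, whose probes gave 0.53 and 4.95. Cux1, a factor of upper-layer neurons, had a change of -0.22 that did not pass the test (adjusted p = 0.203). The summed level of the 25 genes was also highest among E15 animals in knockout 8 and control 1 (27390 and 29040 units), against 15860 to 20230 in the other 7 knockouts and 17500 to 19210 in the other 5 controls. Cdkn1c alone had 11840 and 16380 units in these 2 animals. The mean log2 level of the 25 genes, in which no gene dominates, was not highest in them. It was 8.755 in knockout 8, against 8.493 to 8.778 in the other knockouts, and 8.634 in control 1, against 8.647 to 8.742 in the other controls. Without the 2 connective-rich E15 controls, 10 of these 25 genes, 14 of the 27 transcription factors and 12 of the 26 Notch genes fell, and 2, 3 and 1 rose. Of all features in that fit, 25% fell and 11.7% rose. The part of tissue makeup in these lists was not tested.

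**Figure D3:**
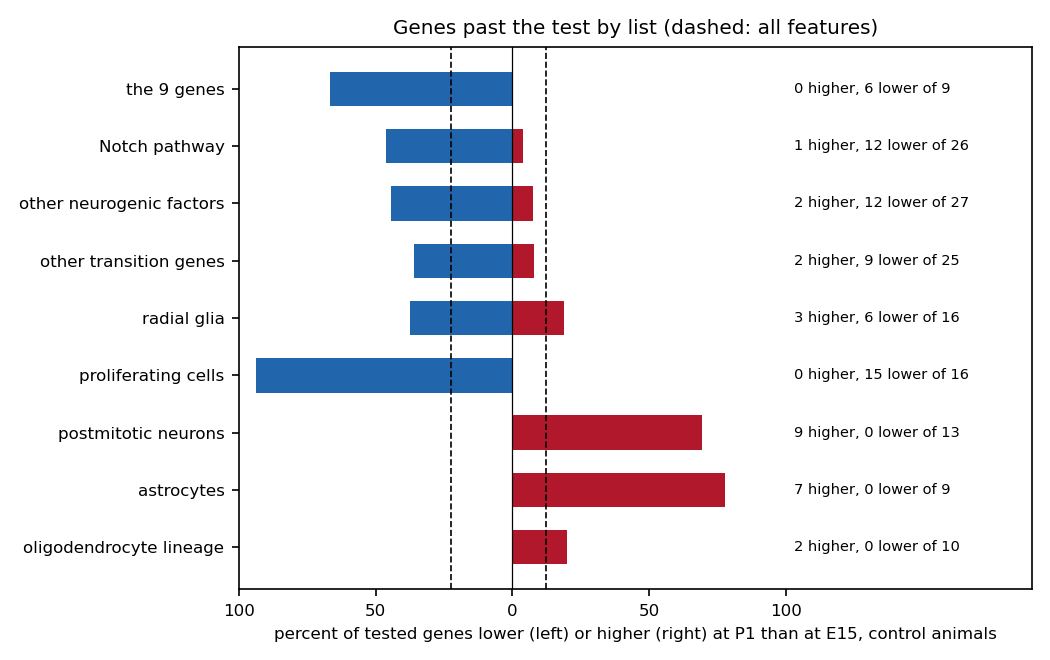
Percent of the tested genes of each list that were lower (left, blue) or higher (right, red) at P1 than at E15 in control animals, with counts at the right and the shares among all features as dashed lines. The 9 genes have 6 lower and 0 higher, between the proliferation list (15 of 16 lower) and the Notch pathway (12 of 26 lower).

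Over the 22 animals, with levels centred within each age and genotype, Dll1 and Neurog2 were each other's most similar gene among 18381 other genes (Pearson r = 0.824, a description without a test). The next highest pairs among the 9 genes were Eomes and Insm1 (r = 0.706) and Eomes and Neurog2 (r = 0.623). The lowest were Neurog1 and Lfng (-0.342) and Neurog1 and Insm1 (-0.241), so the 9 genes did not all vary together. The animals share arrays in pairs and differ in how much forebrain and connective tissue they hold, and both are shared by all genes of an animal. The genes most like Insm1 were Phf6 (r = 0.841), Sox5 (0.832) and Dmrta2 (0.828), those most like Eomes included Tfap2c (0.823) and Cntn2 (0.816), and the third for Neurog2 was Sstr2 (0.769), a receptor on the list of transition genes. Apart from Dll1 and Neurog2, none of the 9 genes had another of them among its 3 closest genes. Neurog1 was closest to 1700020L24Rik (0.922) and Cyp46a1 (0.921), and Hes6 to Vps41 (0.914).

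Knockout over control at P1 gave no difference in any of the 9 genes that passed the test, and 0% of the 23873 features passed it (limma, lowest adjusted p = 0.289; 2233 features, or 9.35%, had an unadjusted p under 0.05, none of them among the 9). Neurog2 had log2 ratios of -0.08, 0.02, 0.17 and -0.16 in replicates 1 to 4, and Neurog1 of -0.17, 0.03, 0.14 and 0.01. Both scattered around 0, with means of -0.01 (95% confidence interval -0.18 to 0.15) and 0.00 (-0.16 to 0.16). For Neurod1 the ratios were 0.53, 0.31, -0.50 and 0.25, the widest spread of the 9 genes at this age (mean 0.15, SD 0.45, interval -0.29 to 0.59, adjusted p = 0.833).

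Insm1 (0.27, -0.02, -0.11 and 0.12) and Eomes (-0.03, 0.06, 0.05 and 0.17) had means of 0.06 each. Hes6 had -0.13, -0.19, 0.07 and 0.58, so that its mean of 0.08 (interval -0.26 to 0.43) rested on replicate 4 and was -0.08 without it. The dimmer Hes6 probe had -0.04 in that replicate. Btg2 (-0.30, 0.11, -0.22 and 0.02) had a mean of -0.10 (interval -0.30 to 0.11), Dll1 (-0.12, 0.01, 0.06 and 0.21) one of 0.04, and Lfng (-0.18, 0.15, 0.01 and 0.04) one of 0.01. At the brightest probe of all 9 genes the replicates lay on both sides of 0, whereas 18.7% of features, each also at its brightest probe, had all of them on 1 side. Of the 4 dimmer probes, 1 of Btg2 had all 4 replicates below 0 (-0.13 to -0.03). The median of the 17 forebrain genes was 0.54, -0.35, 0.60 and -0.17 in the same replicates, and that of the 9 genes was -0.12, 0.03, 0.05 and 0.12.

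At E15 none of the 9 genes passed the test either, among 24100 features of which 0% did (limma, lowest adjusted p = 0.273; 1546 features, or 6.41%, and none of the 9 had an unadjusted p under 0.05). The SD over replicates was smaller at P1 than at E15 in 7 of the 9 genes, and it was 0.45 at P1 and 0.41 at E15 for Neurod1 and 0.14 at P1 and 0.13 at E15 for Lfng. Neurog2 had log2 ratios of 0.32, 0.47, 0.62, 0.56, 0.19, -0.34, -0.32 and -1.53 in replicates 1 to 8 (mean -0.01, SD 0.72, interval -0.56 to 0.55, adjusted p = 0.995). Its first 5 replicates were above 0 and the last 3 below. Eomes had 0.33, 0.11, 0.16, 0.47, -0.38, -0.10, 0.07 and -1.67 (mean -0.13, SD 0.67, interval -0.64 to 0.38, adjusted p = 0.907). The low value of replicate 8 was present in both dye orientations, at -1.84 and -1.49 for Eomes and -1.70 and -1.37 for Neurog2.

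Insm1 had 0.30, 0.20, 0.36, 0.50, 0.05, -0.48, -0.14 and -0.75, and Hes6 had 0.42, 0.18, -0.34, 0.52, -0.15, -0.79, -0.32 and -0.77. Replicates 6 and 8 were lowest in both genes, and the limma estimates were 0.00 (interval -0.33 to 0.34) and -0.17 (-0.55 to 0.21). Dll1 had 0.15, 0.08, 0.35, 0.32, 0.24, 0.04, -0.35 and -0.83, again lowest in replicate 8 (estimate 0.00, interval -0.31 to 0.31). Neurod1 had 0.31, 0.08, 0.23, 0.99, 0.16, -0.19, -0.07 and -0.35 (estimate 0.14, interval -0.17 to 0.45). Btg2 ran from -0.55 in replicate 8 to 0.15 in replicate 4 (estimate -0.13, interval -0.32 to 0.06), and Lfng from -0.15 to 0.27, the narrowest range of the 9 (estimate 0.02, interval -0.10 to 0.13). Neurog1 differed from the others in its order, with its lowest value in replicate 3 (-0.77) and its highest in replicate 1 (0.40). No gene of the 9 had all its values on 1 side of 0, against 1.36% of features.

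**Figure D4:**
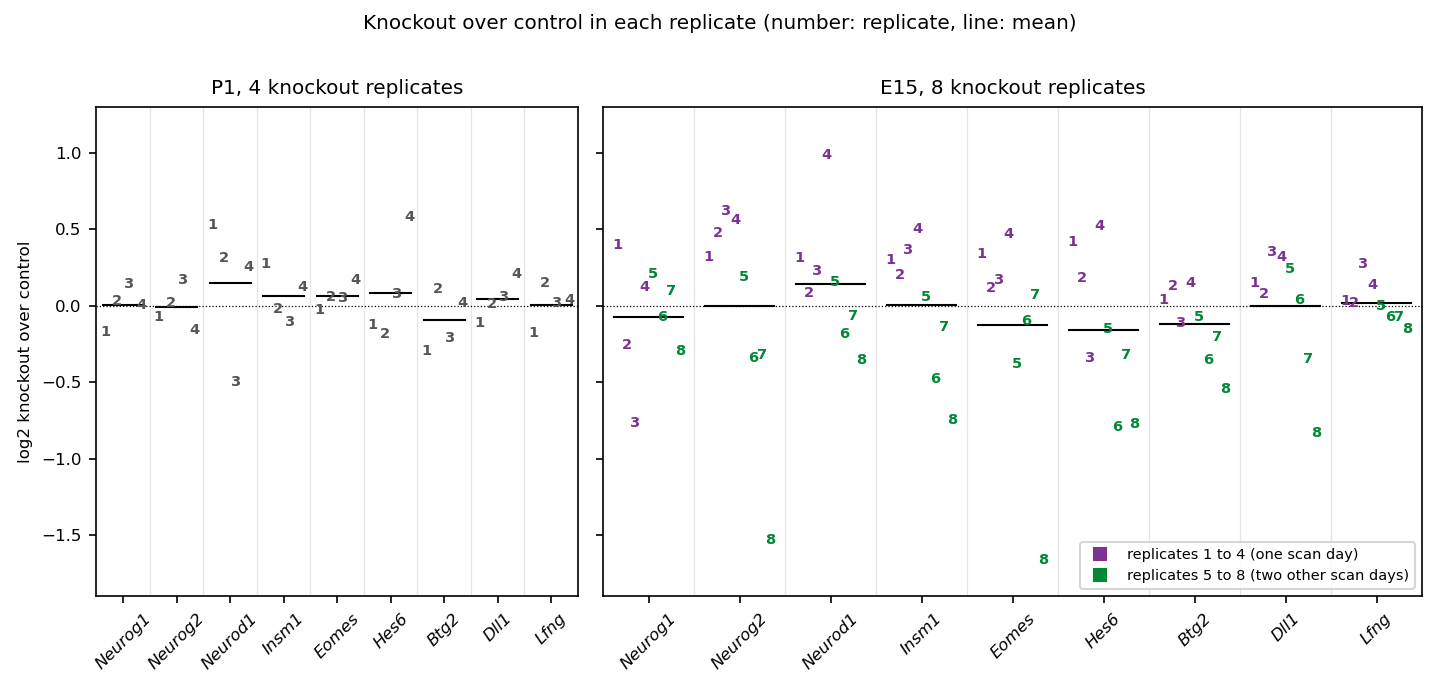
Log2 knockout over control of each gene in each replicate at P1 (left) and at E15 (right), printed as replicate numbers with the mean as a line. At E15 replicates 1 to 4 lie mostly above 0 and replicate 8 lowest in most genes, while no gene has all its replicates on one side of 0.

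At E15 the arrays of a replicate could differ widely. Replicate 1 was hybridised once with control 6 and once with control 1: for Eomes the array with control 1 gave 1.09 and that with control 6 gave -0.42, and for Neurog2 they gave 0.68 and -0.04. Replicate 2 gave 0.62 for Eomes and 1.21 for Neurog2 against control 2, and -0.39 and -0.26 against control 3. For Neurog1 replicate 1 ran the other way, with 0.18 against control 1 and 0.61 against control 6. These pairs of arrays also differ in dye orientation, so that control animal and dye cannot be told apart in them. Arrays with the same 2 animals differed too: Hes6 in replicate 8 gave -1.43 and -0.12, and Eomes in replicate 5 gave -0.64 and -0.12. Control 3 had the highest Eomes and Neurog2 levels of the 6 E15 controls (208 and 437 units) and control 1 the lowest (65.2 and 206 units). Replicates 1 to 4 were scanned on 1 day and replicates 5 to 8 on 2 earlier days. The means of replicates 1 to 4 exceeded those of replicates 5 to 8 in 8 of the 9 genes. Examples are 0.49 against -0.50 for Neurog2 and 0.27 against -0.52 for Eomes, whereas Neurog1 had -0.13 against -0.02.

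The medians of marker lists also varied over the E15 replicates. The median log2 ratio of the 9 genes over replicates 1 to 8 was 0.31, 0.11, 0.23, 0.47, 0.06, -0.19, -0.14 and -0.75. That of the 16 meninges and fibroblast genes was -1.26, -0.28, -1.08, -1.86, 0.01, -0.70, 0.45 and 2.55, and that of the forebrain genes 0.49, 0.15, 0.19, 0.15, -0.01, -0.29, 0.03 and -1.12. Replicate 8 was the lowest for the 9 genes and for forebrain genes and the highest for meninges and fibroblast genes, with all 9 genes below 0 there and all 9 above 0 in replicates 1 and 4. The part of tissue makeup in these values was not tested. A further fit left out replicates 1, 4 and 8 and, unlike the reported E15 fit, did not block by shared controls. Without replicates 1, 4 and 8, which hold control 1 or knockout animal 8, none of the 9 genes passed the test, and the limma estimates were 0.00 for Insm1, -0.03 for Eomes, 0.07 for Dll1, 0.12 for Neurog2, -0.12 for Btg2, -0.16 for Neurog1, -0.29 for Hes6, 0.03 for Lfng and 0.04 for Neurod1, with adjusted p from 0.738 to 1.

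**Figure D5:**
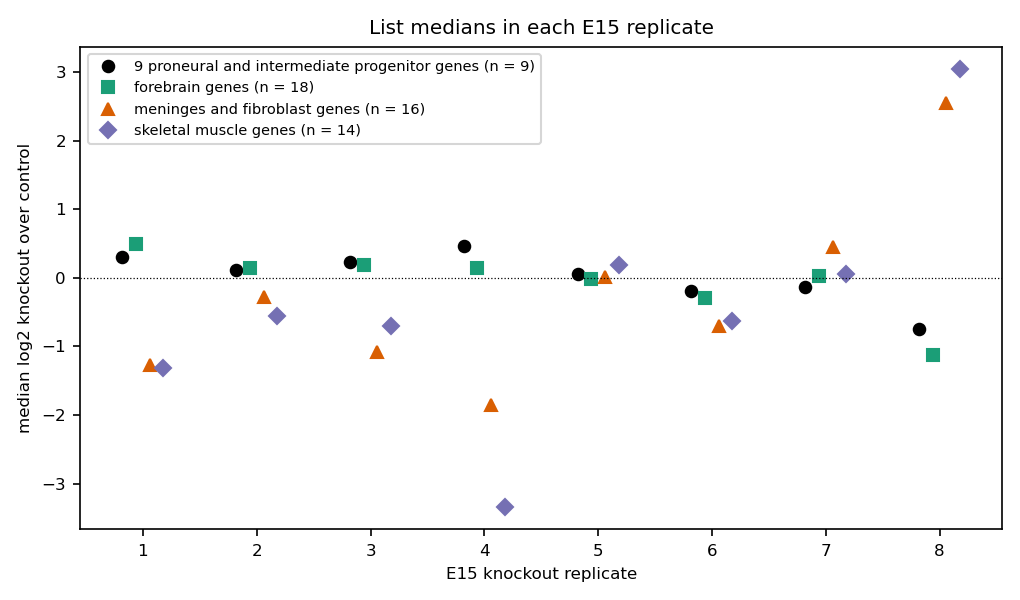
Median log2 knockout over control in each E15 replicate for the 9 genes (black circles), forebrain genes (green squares), meninges and fibroblast genes (orange triangles) and skeletal muscle genes (purple diamonds). In replicate 8 the 9 genes and the forebrain genes are lowest, at -0.75 and -1.12, and the other lists highest, at 2.55 and 3.05.

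The knockout effect at P1 minus that at E15 was tested directly, and none of the 9 genes passed, against 0.00885% of the 22596 features tested. The largest of these differences were 0.25 for Hes6 (SE 0.26, interval -0.32 to 0.83, limma adjusted p = 0.970) and 0.19 for Eomes (SE 0.33, adjusted p = 0.980) while the interval for Neurog2 was -0.79 to 0.78. These intervals are wide against the estimates. No gene of the Notch, neurogenic factor or transition lists passed the knockout comparison at either age: their medians were -0.02, 0.02 and 0.02 at P1 and -0.01, 0.03 and 0.03 at E15. The lowest p among them at P1 was that of Elavl2 (-0.41, adjusted p = 0.430) and at E15 that of Cbfa2t3 (0.34, adjusted p = 0.761).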

How the data were processed

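RNA of whole brain was measured in 12 animals labelled knockout and 10 controls on 22 dual-colour Agilent arrays. Per the file headers, the deposited files hold mean spot intensity and median local background intensity, not normalized, and processed signals. The deposited matrix of log10 ratios (red over green processed signal, medians at 0) was used as an alternative. Probes were named through E15 gene names, since P1 files give accessions. Intensities were corrected here by normexp (offset 50) and loess, outlier spots were removed, and dye orientations were averaged to 1 log2 knockout over control value per replicate. Values with 1 orientation, including all of E15 replicates 3 and 4, had the mean dye effect of the complete replicates of their age subtracted. P1 controls, which the labels do not number, carry the number of the knockout hybridised with them. Channels were separated after Aquantile normalization for levels, from which no dye effect was subtracted. Features needed 3 values per group, a minimum added after the data were seen, and at least 50% of channels well above background; the brightest probe stood for a gene. Tests used limma 3.58.1 in R 4.3.3 with Benjamini-Hochberg adjustment over all features; the E15 and interaction fits took the sets of replicates sharing controls as a random block (correlation 0.06 and 0.07). The knockout and control of an array ratio come from 1 array, so the design is paired. The values of E15 replicates 1 and 2 average arrays with different control animals. The number of animals limits precision, and some E15 controls were shared between replicates. The fits were tested on simulated data with known changes. Figures used matplotlib 3.10.9 in Python 3.11.15.

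The genes, lists and tests were chosen with earlier results of these data known. From each list the 2 largest rises and falls past the test were named, and for lists with none the lowest p-values; Dll3, Jag1, Hes1, Hes5, Tcf4, Tcf12, Gadd45g, Rnd3 and Cux1 were added for their roles after their values were seen.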

Additional observations from a re-analysis of the deposited data

Results flagged for a closer look

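Among 54 groups of 4 to 8 values of the 9 genes, 3 held a value far from the rest of its group, where chance gives about 1 in 20 groups. The Hes6 level of E15 knockout animal 3 was 377 units, against 656 to 967 in the other 7 E15 knockouts, and this animal was hybridised in 1 dye orientation only. Its level was not corrected for dye. The Hes6 log2 ratio of replicate 3, which was corrected, was -0.34, with replicates 6 and 8 lower at -0.79 and -0.77. The Eomes log2 ratio of knockout over control in E15 replicate 8 was -1.67, against -0.38 to 0.47 in the other 7 replicates. The Neurog2 log2 ratio in the same replicate was -1.53, against -0.34 to 0.62 in the other 7.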

How the results depend on the processing

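In controls, Btg2, Dll1, Insm1, Neurog1 and Neurog2 passed the limma test with the same sign in all 19 alternatives, Hes6 in 13 and Eomes, not called in the reported fit, in 4. In knockouts, Btg2 and Dll1 passed in all 21, Neurog2 in 20, Insm1 in 17, Neurog1 in 4 and Hes6 in 2. The number of the 9 genes called in knockouts was 2 to 6 over the fits leaving out 1 animal (4 with all animals), and the features called were 3756 to 6820 (6166 with all), with 3756 without P1 knockout 3 and 3913 without P1 knockout 4. The Lfng change in knockouts was 0.08 with channels scaled to the 75th percentile. None of the 9 genes passed a knockout comparison or the interaction in any alternative, and estimates near 0 changed sign in several. At E15, 1 feature passed with the scanner's processed signals and 1 with the deposited log ratios, against 0 reported, and 0 to 1 over the fits leaving out 1 replicate (1 without replicate 1). For the interaction, 2 features passed as reported, 7 with no filter, and 0 with signal required above background in every channel, the scan day block, the offset of 10, outlier spots kept, processed signals, deposited ratios, or without replicates 1, 4 and 8 of E15; leaving out 1 replicate gave 0 to 2. The cause of these shifts was not tested. The knockout and control were paired by array; with no replicate block, unpaired channel levels gave 0 features at both ages. A scan day block at P1 was not run because all its arrays share 1 day. The fits without the E15 animals highest in meninges and fibroblast genes were chosen after seeing the data. So were the fits with at least 1 value per age. Those without E15 replicates 1, 4 and 8 did not block by shared controls. Low signal limits Eomes, Lfng and Insm1, whose P1 levels lay nearest the added constant.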
